A study of Mus musculus with 4 samples.

Results

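The genes described here are 10 markers of fibro-adipogenic progenitors and related mesenchymal cells, namely Islr, Pdgfra, Osr1, Cd34, Ly6a, Thy1, Dpp4, Pi16, Mfap5 and Hic1. They were followed in adult mouse mesoangioblasts (AdmMABs) in which PW1 was silenced by a short hairpin RNA (shPW1) and in cells with a control hairpin (Ctl). A member was taken as the probe set whose annotation named that gene alone, and the brightest over the 4 arrays where there were several. In practice 9 of the 10 genes had such a probe set, 1 each, out of 19938 genes measured in this way. No probe set was paired with Ly6a, the gene of the surface antigen Sca-1, in the annotation used, so Ly6a was not analysed here.

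Mesoangioblasts are muscle-forming cells brought into culture from small vessels. The cells were a polyclonal population from the tibialis anterior muscle of adult male C57/BL6 mice, kept growing in medium rich in serum, and 2 RNA extractions from shPW1 AdmMABs and 2 from Ctl AdmMABs were profiled, each on its own Mouse Gene 1.0 ST array. All cells of both groups had been transduced with a lentivirus. The shPW1 hairpin was a single sequence in the vector pLV-H1. The methods also name a control hairpin in pLKO.1 and the labels a scrambled one, but the vector used for these Ctl cells is not given in the sources used here, so any effect of the vector and of the hairpin cannot be told apart. Replicates are extractions from 1 transduced population per group, so p-values reflect the spread between extractions alone, and that spread may be technical. Array values are log2 expression after RMA by the authors, a method that corrects background, equalizes the arrays and joins probes into probe sets.

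Fibro-adipogenic progenitors are the interstitial mesenchymal cells of skeletal muscle. They are identified by the receptor PDGFRα, they support muscle stem cells during repair, and they can turn into adipocytes or matrix-producing fibroblasts. Dpp4 and Pi16 mark a fibroblast population found in many mouse tissues that is thought to give rise to other fibroblasts, Hic1 and Osr1 are transcription factors of mesenchymal progenitors, and Islr encodes Meflin, a secreted and membrane-anchored protein with leucine-rich repeats that is made by mesenchymal stromal cells.

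PW1 is a zinc finger protein that can bind DNA. The study proposes that it represses the genes of cycE and JAM-A, which it reports as raised in shPW1 cells. The promoters shown here, with the letters searched in them, are of members that lay lower in shPW1 cells. Whether PW1 acts on these promoters was not tested. The windows are RefSeq's, on build GRCm38.p6, and run from 250 bases before to 50 bases after the start of the gene, 5′ to 3′ on the strand of the gene. Capitals mark TGGCT or its complement AGCCA, which are the letters at the end of a DNA motif that the study cites for PW1 from earlier work, and the E-box CAGCTG.
Islr (chr9:58158505-58158804, - strand): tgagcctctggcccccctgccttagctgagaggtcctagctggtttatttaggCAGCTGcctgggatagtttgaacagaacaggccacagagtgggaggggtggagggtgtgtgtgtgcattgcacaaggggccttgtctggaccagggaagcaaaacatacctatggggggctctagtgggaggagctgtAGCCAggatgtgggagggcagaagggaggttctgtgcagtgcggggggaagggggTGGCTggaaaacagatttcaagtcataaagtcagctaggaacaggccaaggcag
Pdgfra (chr5:75152001-75152300, + strand): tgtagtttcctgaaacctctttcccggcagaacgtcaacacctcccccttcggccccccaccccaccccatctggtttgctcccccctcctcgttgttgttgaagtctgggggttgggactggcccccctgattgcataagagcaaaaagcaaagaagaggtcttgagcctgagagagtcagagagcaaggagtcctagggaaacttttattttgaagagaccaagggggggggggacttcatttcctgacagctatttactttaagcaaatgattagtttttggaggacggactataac
Cd34 (chr1:194938571-194938870, + strand): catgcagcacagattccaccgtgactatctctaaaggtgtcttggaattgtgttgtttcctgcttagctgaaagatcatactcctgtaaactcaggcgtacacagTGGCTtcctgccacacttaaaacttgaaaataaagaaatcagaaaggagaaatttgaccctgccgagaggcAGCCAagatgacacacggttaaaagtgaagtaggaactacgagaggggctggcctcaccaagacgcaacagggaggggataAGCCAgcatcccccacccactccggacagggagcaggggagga
The table held windows for 6 of the members, and Osr1, Ly6a, Thy1 and Mfap5 were not in it. Matches to the whole motif are not reported here. TGGCT or AGCCA was found in windows of Islr, Cd34, Dpp4 and Hic1, and in 63.4% of all 32851 windows, so most promoters hold these letters. CAGCTG was the only form of the E-box searched. It reads the same on both strands and shares no base with the other matches in these windows. This form was found for Islr and Pi16, and in 16.3% of all windows. These matches describe letters only.

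Peg3, which encodes PW1, was lower in shPW1 AdmMABs, with log2 expression of 6.22 and 6.47 in the shPW1 arrays, against 8.67 and 8.70 in the Ctl arrays. Its log2 fold change was -2.34 (SE 0.10, limma adjusted p = 0.00428). Over all 21789 probe sets tested, 1075 rose and 908 fell in shPW1 (adjusted p under 0.05, Benjamini-Hochberg). After subtraction of array medians these counts were 1627 and 759. No detection call was at hand, so 1023 probe sets of olfactory receptor genes, which such cells should not express, served as a mark of dim signal. Their 95th percentile lay between 4.942 and 4.998 on the log2 scale over the 4 arrays. As for the label of the cells, no single gene defines mesoangioblasts, and Peg3, Alpl, Pdgfrb and Cspg4, which are named for them, were above this mark on all arrays. Alpl, which encodes the alkaline phosphatase used to find such cells, had log2 expression of 5.79 and 5.73 in shPW1 and of 5.75 and 5.95 in Ctl (log2 fold change -0.09, limma adjusted p = 0.592).

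Islr stood apart from the other members. Its log2 expression was 6.75 and 6.53 in the shPW1 arrays, against 9.41 and 9.26 in the Ctl arrays, so the groups did not overlap and the gap between them was many times the gap between extractions. The means were 6.64 ± 0.16 in shPW1 and 9.34 ± 0.11 in Ctl (SD, n = 2 each), which gives a log2 fold change of -2.69, or an expression in shPW1 of 15.4% of that in Ctl. Islr was chosen by this difference between the groups, which was the most negative of all 21789 probe sets, and its values are therefore given as a description without a test. Over the alternatives tried its log2 fold change ran from -2.81 to -2.58. In RNA from whole cultures, fewer cells expressing a gene and less RNA per cell cannot be told apart, here and for each gene below.

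The genes whose pattern over the 4 arrays was nearest to that of Islr were Car3, Igfbp2, Cadm4, Aspn and Peg3 itself. Likeness was the Euclidean distance between log2 values centred on the mean of each gene. The distance was 0.215 for Car3, a carbonic anhydrase, and 0.351 for Igfbp2, an insulin-like growth factor binding protein. It was 0.392 for the adhesion molecule Cadm4, 0.466 for Aspn, a small leucine-rich proteoglycan of matrix, and 0.505 for Peg3. With 2 groups of 2 arrays this measure finds genes with a gap of like size between the groups, and the log2 fold changes of these 5 genes lay between -2.61 and -2.33. Islr2, the gene of the related Islr2 protein, lies next to Islr among the protein-coding genes of RefSeq. Its log2 expression was 5.14 and 4.96 in shPW1, against 5.31 and 5.20 in Ctl, just above the dim mark, and the log2 fold change of -0.21 (limma adjusted p = 0.227, SE 0.09) stayed short of the threshold.

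**Figure D1:**
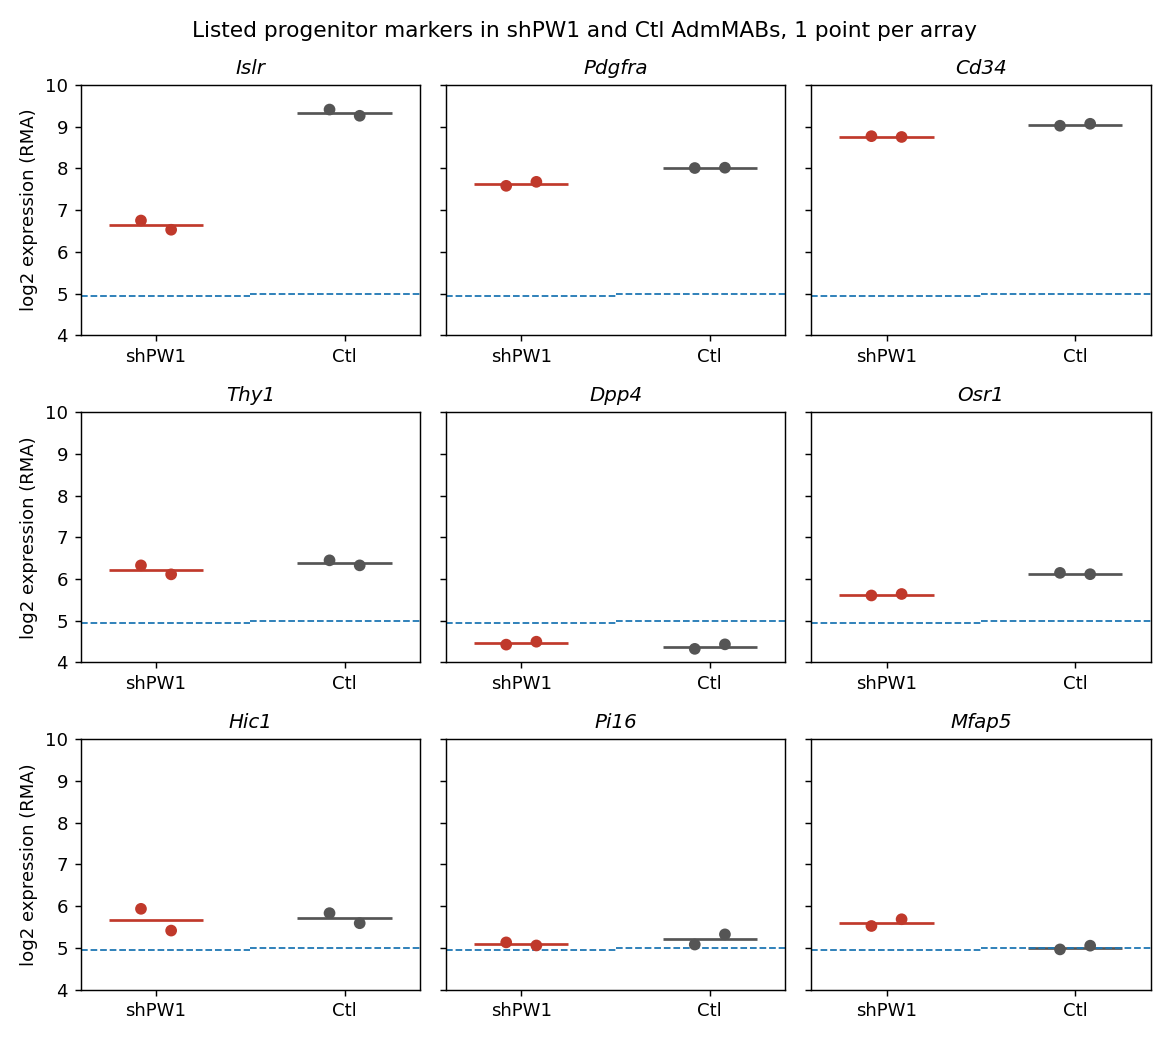
Log2 expression after RMA (vertical axis) of the 9 measured markers in the 2 shPW1 arrays (red) and the 2 Ctl arrays (grey), 1 panel per gene. Points are arrays, short lines are group means, and the dashed line is the 95th percentile of olfactory receptor probe sets, averaged within each group; Islr averages 6.64 in shPW1 and 9.34 in Ctl, and all points of Dpp4 lie under the dashed line.

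The other 8 measured members were tested with limma on the same 4 arrays, with p-values adjusted over all 21789 probe sets. Pdgfra and Osr1 were lower in shPW1 AdmMABs, Mfap5 was higher, and Cd34, Thy1, Dpp4, Pi16 and Hic1 did not pass the test. That is 1 of 8 higher (12.5%, where 4.93% of all probe sets tested were higher) and 2 of 8 lower (25%, against 4.17% of all). With so few genes, chosen with these results known, the shares are given only as counts. The median log2 fold change of the 8 genes was -0.14, and that of all probe sets tested was -0.0095. The changes were of modest size, between 1.30-fold and 1.51-fold for the 3 genes that passed.

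Pdgfra encodes PDGFRα, the receptor tyrosine kinase that defines fibro-adipogenic progenitors. Its log2 expression was 7.58 and 7.68 in the shPW1 arrays, against 8.01 and 8.02 in the Ctl arrays. Both shPW1 arrays lay below both Ctl arrays, and the Ctl extractions were nearly equal. The means were 7.63 ± 0.068 in shPW1 and 8.01 ± 0.0053 in Ctl (SD, n = 2 each). The log2 fold change was -0.38 (SE 0.06, 95% confidence interval from -0.55 to -0.22, limma adjusted p = 0.0354), an expression in shPW1 of 76.7% of that in Ctl.

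Cd34, a sialomucin on the surface of many progenitors, had log2 expression of 8.77 and 8.75 in the shPW1 arrays, against 9.02 and 9.07 in the Ctl arrays. The groups did not overlap and were tight, with an SD of 0.013 in shPW1 and 0.033 in Ctl. The log2 fold change of -0.28 (SE 0.06, 95% confidence interval from -0.44 to -0.13) had a limma adjusted p = 0.0545. Cd34 was not called, and its adjusted p depended on the setting, at 0.0115 with dim probe sets left out, 0.114 after subtraction of array medians (log2 fold change -0.22) and 0.141 with all rows tested.

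Thy1, which encodes the surface glycoprotein CD90, had log2 expression of 6.33 and 6.11 in the shPW1 arrays, against 6.45 and 6.33 in the Ctl arrays. The higher shPW1 array and the lower Ctl array had the same value, so the groups touch. Its log2 fold change of -0.17 had a 95% confidence interval from -0.42 to 0.09 (limma adjusted p = 0.347).

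Dpp4 encodes dipeptidyl peptidase 4, a surface enzyme of the Dpp4 and Pi16 fibroblasts. It was dim, with log2 expression of 4.43 and 4.50 in shPW1 and of 4.33 and 4.43 in Ctl. None of the 4 values reached the 95th percentile of the olfactory receptor probe sets, and the log2 fold change of 0.08 (95% confidence interval from -0.10 to 0.26, limma adjusted p = 0.518) is a difference between dim signals.

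Among the transcription factors of the set, Osr1 passed the test and Hic1 did not. Osr1, a zinc finger factor of embryonic and injury-activated muscle mesenchyme, had log2 expression of 5.61 and 5.64 in the shPW1 arrays, against 6.15 and 6.12 in the Ctl arrays. The extractions of each group were within 0.04 of each other, and the groups did not overlap. The means of 5.62 ± 0.025 in shPW1 and 6.13 ± 0.022 in Ctl (SD, n = 2 each) differ by a log2 fold change of -0.51 (SE 0.06, 95% confidence interval from -0.66 to -0.36, limma adjusted p = 0.0185). Expression in shPW1 was 70.3% of that in Ctl.

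Hic1, a zinc finger repressor that marks quiescent mesenchymal progenitors of adult muscle, was the least reproducible member. Its log2 expression was 5.94 and 5.42 in the shPW1 arrays and 5.83 and 5.59 in the Ctl arrays, so the extractions of shPW1 differed from each other more than the groups did. The log2 fold change of -0.04 had a 95% confidence interval from -0.55 to 0.47 (limma adjusted p = 0.932), wide enough to hold the changes measured for Osr1 and Pdgfra. Its sign turned to 0.02 when arrays were centred on their medians or quantile normalized again.

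Pi16 and Mfap5 encode secreted products of the Dpp4 and Pi16 fibroblasts, a peptidase inhibitor and a glycoprotein of elastin-associated microfibrils, and Mfap5 was the member that rose. Mfap5 had log2 expression of 5.53 and 5.69 in the shPW1 arrays, against 4.96 and 5.05 in the Ctl arrays. In Ctl its signal was at the dim mark, below it on 1 array and above it on the other, and in shPW1 it was above the mark on both, so the size of the rise is uncertain. The means were 5.61 ± 0.11 in shPW1 and 5.01 ± 0.063 in Ctl (SD, n = 2 each), a log2 fold change of 0.60 (SE 0.08, 95% confidence interval from 0.38 to 0.81, limma adjusted p = 0.0253), or 1.51-fold.

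Pi16 had log2 expression of 5.13 and 5.06 in the shPW1 arrays and of 5.08 and 5.33 in the Ctl arrays. These values overlap and lie close to the dim mark. The log2 fold change was -0.11 (95% confidence interval from -0.37 to 0.15, limma adjusted p = 0.56), and without Ctl replicate 2, the highest of the 4 arrays, it was 0.01.

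**Figure D2:**
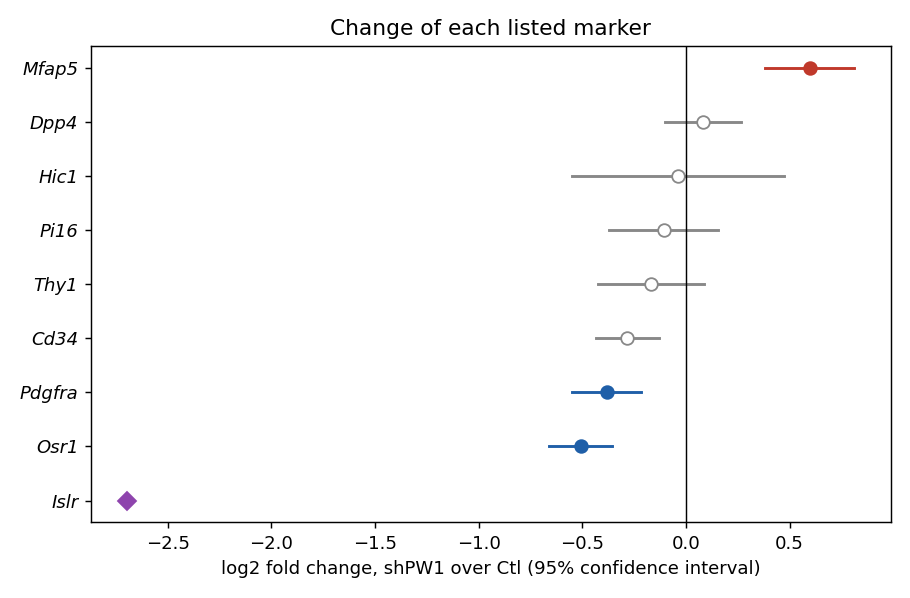
Log2 fold change of shPW1 over Ctl (horizontal axis) for the 9 measured markers (vertical axis), with 95% confidence intervals from limma. Filled red is higher, filled blue lower, and open grey did not pass the adjusted test; Islr (purple diamond, -2.69) is drawn without an interval because it was chosen for its difference, and Osr1 (-0.51), Pdgfra (-0.38) and Mfap5 (0.60) passed.

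Set against all probe sets, the changes of the members covered a wide range. A larger absolute change was seen in 0.0138% of the probe sets tested for Islr, a share that follows from how Islr was chosen. Among the tested members, the share was 2.77% for Mfap5, 4.20% for Osr1 and 8.54% for Pdgfra. The share was 16.0% for Cd34, 35.7% for Thy1, 53.6% for Pi16, 62.6% for Dpp4 and 82.3% for Hic1. The arrays of the groups did not overlap for 3 of the 8 tested members on the lower side (Pdgfra, Osr1 and Cd34) and for 1 on the higher side (Mfap5), where 28% of all probe sets lay lower and 27.5% lay higher without overlap. With any 1 array dropped limma called 0 of all probe sets after adjustment, Peg3 included, so the test cannot speak for single members there (1899 to 2706 were higher and 1891 to 2673 were lower at an unadjusted p under 0.05). The log2 fold changes then ran from -0.43 to -0.33 for Pdgfra, from -0.53 to -0.49 for Osr1 and from 0.52 to 0.68 for Mfap5. Testing all 35556 rows ended the 3 calls (adjusted p = 0.112 for Pdgfra, 0.0815 for Osr1 and 0.0981 for Mfap5), and subtraction of array medians ended that of Pdgfra (adjusted p = 0.0552).

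**Figure D3:**
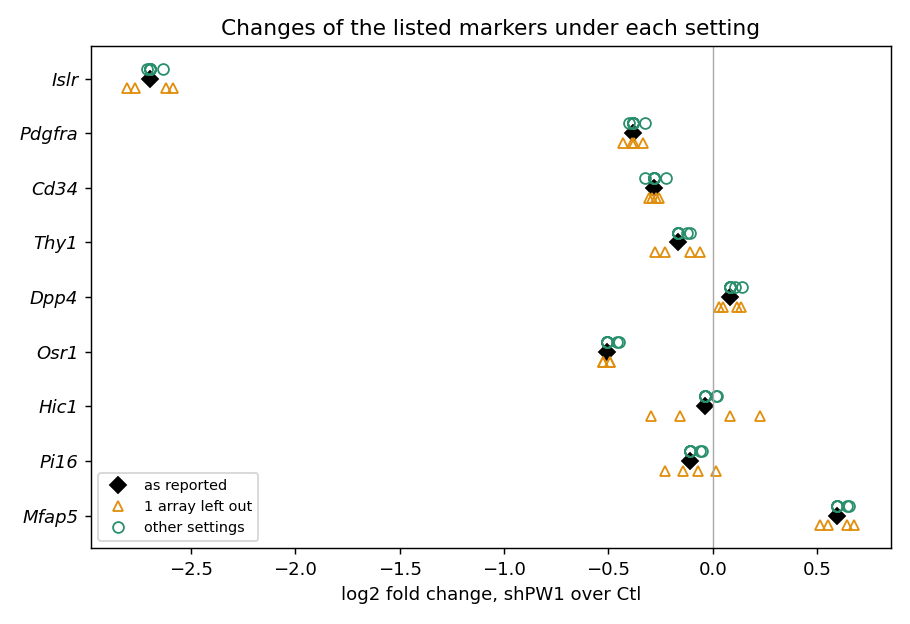
Log2 fold change of shPW1 over Ctl (horizontal axis) of the 9 measured markers (vertical axis) as reported (black diamonds), with 1 array left out (orange triangles) and under the other settings tried (green circles). Islr stays between -2.81 and -2.58, and the points of Hic1 spread from -0.30 to 0.22.

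Relatives of the members in the same protein families were measured for 16 genes. Of these, 3 were lower (18.8%, against 4.17% of all probe sets), 0 were higher and 13 were not called (median log2 fold change -0.08). The microfibril gene Mfap2, a partner of Mfap5 in microfibrils, had log2 expression of 5.86 and 5.79 in shPW1, against 7.13 and 7.25 in Ctl. Its log2 fold change of -1.36 (limma adjusted p = 0.00573) was opposite in sign to that of Mfap5. Pdgfrb, the sister receptor of PDGFRα on pericytes, had log2 expression of 10.36 and 10.33 in shPW1, against 10.81 and 10.78 in Ctl. It was lower like Pdgfra, with a log2 fold change of -0.45 (limma adjusted p = 0.0225). Ly6e, a relative of Ly6a, was lower as well, with a log2 fold change of -0.72 (limma adjusted p = 0.00983), and says nothing of Ly6a itself. Osr2 (log2 fold change 0.10) and Hic2 (-0.07) did not pass. Among 6 genes of PDGF ligands and receptors, 0 were higher and 2 were lower (33.3%, against 4.17% of all probe sets, median -0.08). They were Pdgfrb and Pdgfc, a ligand that signals through PDGFRα (log2 fold change -0.39, limma adjusted p = 0.0304). The ligand genes Pdgfa (0.12) and Pdgfb (0.27) did not pass.

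Of 14 other genes of the Dpp4 and Pi16 fibroblasts, 4 were higher (28.6%, where 4.93% of all probe sets were), 0 were lower and 10 were not called, with a median log2 fold change of 0.10. Only 9 of the 14 were above the olfactory mark on all arrays. The arrays lay higher without overlap for 7 of the 14 and lower for 3, where 27.5% of all probe sets lay higher and 28% lower. The higher genes were Cmah, an enzyme of sialic acid (log2 fold change 0.86), Ackr3, a scavenging receptor of Cxcl12 (0.52), the annexin Anxa3 (0.44) and Ugdh, which makes a precursor of hyaluronan (0.34). Of 15 other genes of Col15a1 and Smoc2 progenitors, 2 were higher (13.3%), 1 was lower (6.67%, against 4.17% of all probe sets) and 12 were not called (median -0.10). Decorin (Dcn), a proteoglycan that is abundant in fibro-adipogenic progenitors, had log2 expression of 5.05 and 5.14 in shPW1, against 5.81 and 5.81 in Ctl. It fell by 0.71 on the log2 scale (limma adjusted p = 0.012). The shPW1 values were close to the dim mark, so the size of the fall is uncertain. The matrix protein Smoc2 (0.51) and the basement membrane collagen Col4a1 (0.46) rose. Many genes of this list were dim, and 8 of the 15 were above the olfactory mark on all arrays.

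Of 15 other surface markers of mesenchymal stroma, 3 were higher, 3 were lower and 9 were not called (median 0.03). That is 20% each way, where 4.93% of all probe sets were higher and 4.17% lower. Cd248, the endosialin of pericytes and stromal fibroblasts, had log2 expression of 5.89 and 5.83 in shPW1, against 7.22 and 7.14 in Ctl, and a log2 fold change of -1.32 (limma adjusted p = 0.00504). The aminopeptidase Anpep (-1.06) and the tetraspanin Cd9 (-0.92) were lower too, and the adhesion molecule Alcam (0.47) was higher. Of 16 mesenchymal transcription factors, 0 were higher, 2 were lower (12.5%, against 4.17% of all probe sets) and 14 were not called (median -0.07). The lower genes were Ebf1 (log2 fold change -0.35), a factor of adipocyte and stromal lineages, and Snai2 (-0.32), a repressor of epithelial genes. After subtraction of array medians these calls were lost (adjusted p = 0.0607 for Ebf1 and 0.0767 for Snai2), and 2 other factors were called higher and 0 lower, namely Nr2f2 and Twist2, so the direction of the calls in this list depends on the scaling. All these p-values are from limma.

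Markers of other cells were read beside the members. Of 12 endothelial and of 11 leukocyte markers 0 were called by limma, with 0 and 1 at an unadjusted p under 0.05 and 0 and 0 by the analysis of variance of the methods. The mean log2 level of the endothelial list was 5.09 to 5.15 in shPW1 and 5.18 to 5.21 in Ctl, and that of the leukocyte list was 4.70 to 4.83 in shPW1 and 4.70 to 4.78 in Ctl. Of these lists 6 of the 12 endothelial and 4 of the 11 leukocyte markers were above the olfactory mark on all 4 arrays, with Flt1 the brightest of the endothelial list (7.15 and 7.22 in shPW1, 7.15 and 7.23 in Ctl) and Cd14 of the leukocyte list (6.48 at the lowest in shPW1, against 6.36 at the lowest in Ctl). The defining markers Pecam1, Kdr and Tek were under the mark on all 4 arrays, as were Ptprc, Itgam and Csf1r. The defining endothelial marker Cdh5 was above it on 3 arrays, and the defining leukocyte marker Cd68 on all 4. Of 12 pericyte and smooth muscle markers, 0 were higher, 5 were lower (41.7%, where 4.17% of all probe sets were) and 7 were not called (mean level 7.16 to 7.20 in shPW1 and 7.41 to 7.42 in Ctl, median -0.03). The lower genes included the receptor Notch3 (-1.10), the proteoglycan Cspg4 (-0.66), the intermediate filament gene Des (-0.55) and Pdgfrb. Of the defining pericyte markers, Notch3 alone was called. Rgs5 (0.09), Abcc9 (0.09) and Kcnj8 (-0.05) did not pass, and Rgs5 was under the olfactory mark on all 4 arrays. The smooth muscle actin gene Acta2 (0.16) did not pass either. Of 13 satellite cell and myoblast markers, 1 was higher (7.69%), 5 were lower (38.5%) and 7 were not called. Over all probe sets, 4.93% were higher and 4.17% lower. The mean level of this list was 7.55 to 7.57 in shPW1 and 7.86 to 7.88 in Ctl (median log2 fold change -0.15). Of the defining myoblast markers, Myod1 was lowest at -1.72 and Cdh15 was lower at -0.64 (limma adjusted p = 0.013). Myf5 at 0.15 (limma adjusted p = 0.213) and Pax7 at -0.03 did not pass. The other lower genes were Chrna1, Musk and Des, which is also counted among the pericyte markers, and the higher gene was Sdc4. Of 10 tenocyte markers, 1 was higher (Tnc, 0.61) and 1 was lower (Fmod, -1.91), which is 10% each way, with a median of -0.13. Of 6 Schwann cell markers 0 were called by limma, 1 had an unadjusted p under 0.05, and 0 were called by the analysis of variance (median -0.04). With all 35556 rows tested, the calls left in the lists named so far were Mfap2, Anpep, Cd248, Notch3, Myod1 and Peg3. The part that other cells or lineages play in the values of the members was not tested.

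**Figure D4:**
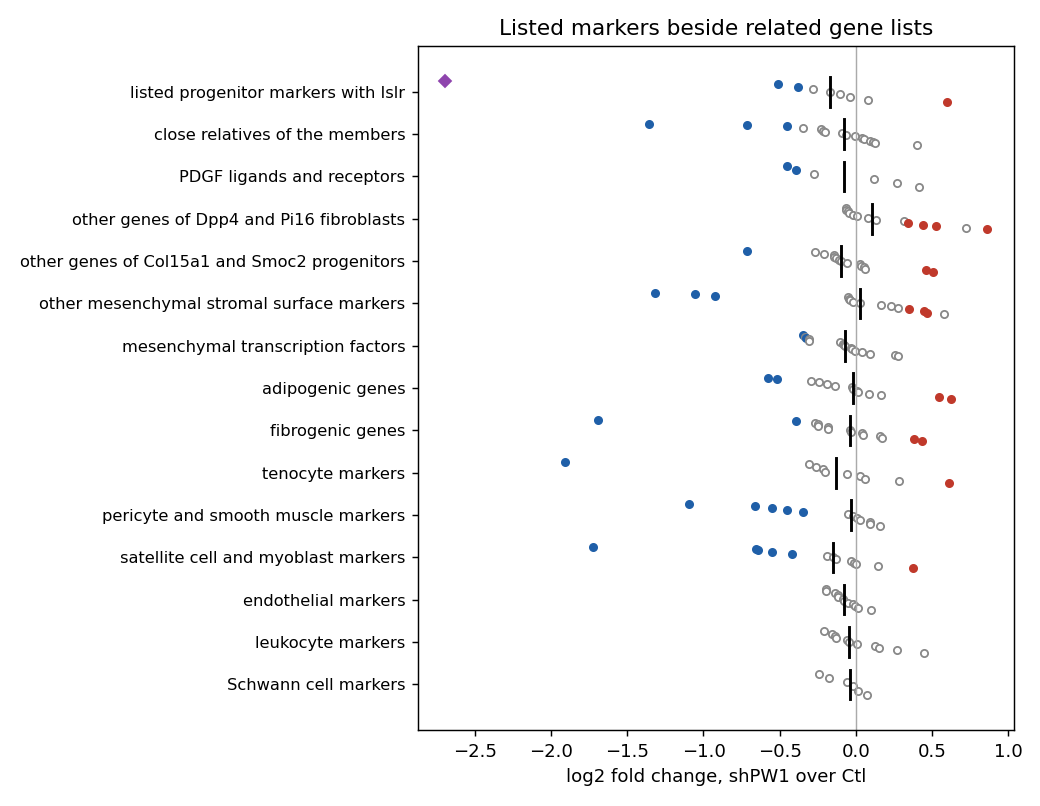
Log2 fold change of shPW1 over Ctl (horizontal axis) for each measured gene of the marker set and of 14 related lists (vertical axis). Points are genes, filled red for higher calls, filled blue for lower calls and open otherwise, and black bars are list medians. Islr (purple diamond) lies at -2.69, and no endothelial, leukocyte or Schwann cell marker passed.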

How the data were processed

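RNA of 2 shPW1 and 2 Ctl extractions was read on Affymetrix Mouse Gene 1.0 ST arrays. The log2 values of 35556 probe sets were deposited by the authors after RMA with Partek software (6.4 per the submitters' processing notes), so background correction, normalization and summarization were not repeated. Of these, 21789 had exactly 1 gene symbol in the array's annotation and were tested, 1621 had several and 12146 had none; 21698 matched the gene table used for symbols. The comparison used limma 3.58.1 (lmFit, then eBayes) under R 4.3.3 (2 residual and 2.72 prior degrees of freedom), two-sided, with Benjamini-Hochberg adjustment over all probe sets tested and calls at an adjusted p under 0.05. No depth exists for arrays, and their number limits the precision. Named genes were all members, measured relatives, up to 4 called genes with the largest change per list, markers of other cells, and the 5 genes nearest to Islr (predicted genes left out). Members and lists were chosen with earlier results of these data known. Alternatives tried were the methods' analysis of variance (p under 0.05, fold change over 1.2), a replicate block, dropping each array, removing dim probe sets, testing all rows, centring arrays on their medians, quantile normalizing again, and a trended robust prior.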

Additional observations from a re-analysis of the deposited data

How the results depend on the processing

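Against 1075 probe sets higher and 908 lower in shPW1, the counts were 2240 and 1784 with dim probe sets left out (12689 tested). The shares called were thus larger among brighter probe sets than the 4.93% and 4.17% set beside the lists. Counts were 36 and 50 with all rows tested, 1627 and 759 after subtraction of array medians, and 2735 and 1978 when the prior was trended and robust. The methods' analysis of variance gave 1 and 1 after Benjamini-Hochberg adjustment, but 1383 and 1165 at the methods' own thresholds. With each array left out in turn, the counts of all probe sets and of members were 0 to 0 in either direction. For members other than Islr (1 higher and 2 lower), the higher call became 0 with dim probe sets left out, since Mfap5 was removed by that filter, with all rows tested and with the adjusted analysis of variance. The lower calls became 0 with all rows and with the adjusted analysis of variance, and 1 (Osr1) after subtraction of array medians. Cd34 passed without the dim probe sets, after a second quantile normalization (limma adjusted p = 0.0439), with the trended robust prior (adjusted p = 0.00147) and at the methods' thresholds, and did not with all rows tested, after median subtraction or with the replicate block (adjusted p = 0.132). Array medians over all rows were 5.44 and 5.40 in shPW1, against 5.47 and 5.49 in Ctl. Their subtraction raised every log2 fold change by the same amount, and the median over tested probe sets went from -0.0095 to 0.049. The cause of the other shifts was not tested. The log2 fold change of Hic1 turned to 0.017 after quantile normalization and 0.022 after median subtraction, and ran from -0.30 to 0.22 with 1 array left out, while that of Pi16 ran from -0.23 to 0.015 (without Ctl replicate 2). Each member had a single probe set, so the choice between probe sets had no effect.

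The arrays share replicate numbers, but nothing in the labels says that a number marks a shared day or culture, and same-numbered arrays deviated from their group means with a correlation of -0.105 over probe sets. With the replicate block, 256 probe sets were higher and 258 lower, of the members 1 was higher (Mfap5) and 0 were lower, and the adjusted p from limma was 0.0854 for Pdgfra and 0.0586 for Osr1. Of the related lists, the block left 1 higher (Cmah) of 4 among genes of Dpp4 and Pi16 fibroblasts and 0 lower of 2 among transcription factors. It left 2 lower (Cspg4 and Notch3) of 5 among pericyte markers, and 3 lower of 5 and 0 higher of 1 among myoblast markers. Adipogenic genes kept 1 higher (Cebpb) of 2 and 0 lower of 2. Stromal surface markers kept 0 higher of 3 and 3 lower of 3, and PDGF genes 0 lower of 2. Genes of Col15a1 and Smoc2 progenitors kept 0 higher of 2 and 1 lower (Dcn) of 1. Fibrogenic genes kept 0 higher of 2 and 1 lower (Cthrc1) of 2, and tenocyte markers 0 higher of 1 and 1 lower (Fmod) of 1. Relatives of the members kept 2 lower of 3. With the pairing crossed, an alternative chosen after seeing the data, 213 probe sets were higher and 224 lower, and 0 and 0 of the members.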

Other observations

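Fibro-adipogenic progenitors can become adipocytes or matrix-producing fibroblasts, and genes of both fates were read in the same fit. Of 14 measured adipogenic genes, 2 were higher and 2 were lower in shPW1 (14.3% each way, where 4.93% of all probe sets were higher and 4.17% lower), and 10 did not pass limma's test (median log2 fold change -0.02). Cebpb and Cebpd, factors of the early steps of adipogenesis, were the higher genes. Cebpb had log2 expression of 8.96 and 8.98 in shPW1, against 8.38 and 8.30 in Ctl (log2 fold change 0.63, limma adjusted p = 0.0137). Cebpd changed by 0.55 on the log2 scale (limma adjusted p = 0.0283) and was under the dim mark in Ctl. Pparg and Cebpa, which act later and drive the adipocyte programme, were the lower genes. Pparg had log2 expression of 7.97 and 7.86 in shPW1, against 8.48 and 8.50 in Ctl (log2 fold change -0.58, limma adjusted p = 0.019), and Cebpa one of -0.52 (limma adjusted p = 0.0337). The adipocyte genes Adipoq, Cd36, Fabp4 and Lep were under the olfactory mark on all 4 arrays. Plin1 (5.12 to 5.24 over the arrays) and Cidec (5.39 to 5.52) were above it but close to it, and did not pass.

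Of 15 measured fibrogenic genes, 2 were higher, 2 were lower and 11 were not called (median log2 fold change -0.04). That is 13.3% each way, where 4.93% of all probe sets were higher and 4.17% lower. Cthrc1, a secreted protein of activated fibroblasts, had log2 expression of 8.21 and 8.15 in shPW1, against 9.84 and 9.90 in Ctl (log2 fold change -1.69, limma adjusted p = 0.00383), and the growth factor Tgfb1 was lower at -0.39. The actin-binding protein gene Tagln (0.44) and the matricellular gene Ccn2 (0.38) were higher. The collagen genes Col1a1, Col1a2 and Col3a1 had log2 fold changes of -0.25, -0.27 and -0.25 and did not pass. With all 35556 rows tested, the adipogenic calls were lost (adjusted p = 0.0697 for Cebpb, 0.102 for Cebpd, 0.0835 for Pparg and 0.112 for Cebpa) and of the fibrogenic calls Cthrc1 was left.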
